A study of Caenorhabditis elegans with 9 samples.

Results

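The comparison concerned adult worms of Caenorhabditis elegans that carried a mutation in hrde-2 and adult worms that carried a mutation in hrde-1, taken directly against each other. It used 6 of the 9 mRNA-seq libraries of the series: 3 from hrde-2(qe20), strain FD53, and 3 from hrde-1(tm1200), strain USC661. The other 3 libraries, from wild-type N2, did not enter the contrast, and their values are given only beside single genes and lists. Every library was made from polyadenylated RNA of whole animals on day 1 of adulthood, grown at 20 °C and collected about 68 h after the first larval stage, and the labels describe biological triplicates. Each mutant was 1 allele in 1 strain, so the mutation and the rest of the strain's genome cannot be told apart. The alignment names in the headers of the 3 hrde-2 count tables carry a strain number other than the labelled one, and the groups were taken from the labels.

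HRDE-1 is a nuclear Argonaute protein of the germline. It binds small RNAs of the 22G class, which RNA-dependent RNA polymerases make on target transcripts, and it directs transcriptional silencing and histone methylation at the genes they match, a state that can pass to later generations. HRDE-2 is a germ granule protein of the same pathway, required for HRDE-1 to bind the small RNAs of its proper class. A direct contrast of the mutants asks which mRNAs differ between worms that lack the Argonaute and worms that have the Argonaute but lack its partner.

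The hrde-2 libraries held 9920341, 11151616 and 10942365 counts and the hrde-1 libraries 11884233, 8394549 and 9544063 counts. Ribosomal RNA genes took 20.0 to 31.4% of the counts in hrde-2 libraries and 25.6 to 28.5% in hrde-1 libraries. The first principal component of log2 CPM, the counts per library scaled to a common depth, held 57.4% of the variance and separated the mutants, and hrde-1 replicate 1 lay apart from the other hrde-1 libraries on the second, which held 18.4%. Pairs of replicates correlated across genes at r from 0.972 to 0.978 in hrde-2 and from 0.959 to 0.982 in hrde-1. Markers of oocytes, muscle, intestine, neurons and adult hypodermis were present in every library, while the male markers try-5, lov-1, pkd-2 and cwp-1 to cwp-5 had at most 8 counts in any library of either mutant. Because whole animals were sequenced, fewer cells of a type and less RNA per cell cannot be told apart in any of the values that follow.

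The mutated genes themselves separated the libraries as labelled. For hrde-1 (WBGene00007624, chromosome III, 4172337 to 4176159), hrde-2 libraries had 445, 444 and 436 CPM, against 108, 129 and 144 CPM in hrde-1 libraries. The groups did not overlap, and the gene was higher in hrde-2 worms by a log2 fold change of 1.80 (SE 0.15; edgeR quasi-likelihood test, Benjamini-Hochberg adjusted p = 1.32e-04). Wild-type libraries had 198, 335 and 298 CPM, so that the hrde-2 libraries lay above all wild-type libraries and the hrde-1 libraries below them. For hrde-2 (WBGene00011324, chromosome V, 15005100 to 15006400), hrde-2 libraries had 14.4, 15.6 and 19.3 CPM, against 34.7, 38.3 and 43.1 CPM in hrde-1 libraries, a log2 fold change of -1.23 (SE 0.17; edgeR adjusted p = 0.00112). Both mutants retained counts for their own mutated gene, and the tables do not resolve which exons these came from.

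The genes called higher in hrde-2 worms included 71 of 89 tested genes of the sperm lists, and those called lower included 15 of 34 intestinal protease and lysozyme genes, 4 of 6 vitellogenin genes and 147 of 1547 X-linked genes. Of 11801 genes tested, 835 were called higher in hrde-2 worms and 558 lower at an edgeR adjusted p under 0.05, which was 7.08% and 4.73% of all genes tested and 11.8% together. All 1393 called genes had CPM values that did not overlap between the mutants, as did 33.1% of all genes tested, 17.1% higher in hrde-2 and 16.0% lower. The genes called higher were for the most part weakly expressed, with a median of 8.33 CPM in hrde-2 libraries and 2.57 CPM in hrde-1 libraries, and 654 of them differed at least 2-fold. The genes called lower had medians of 13.1 CPM in hrde-2 libraries and 29.4 CPM in hrde-1 libraries, and 274 differed at least 2-fold. The median log2 fold change of all genes tested was -0.01.

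**Figure D1:**
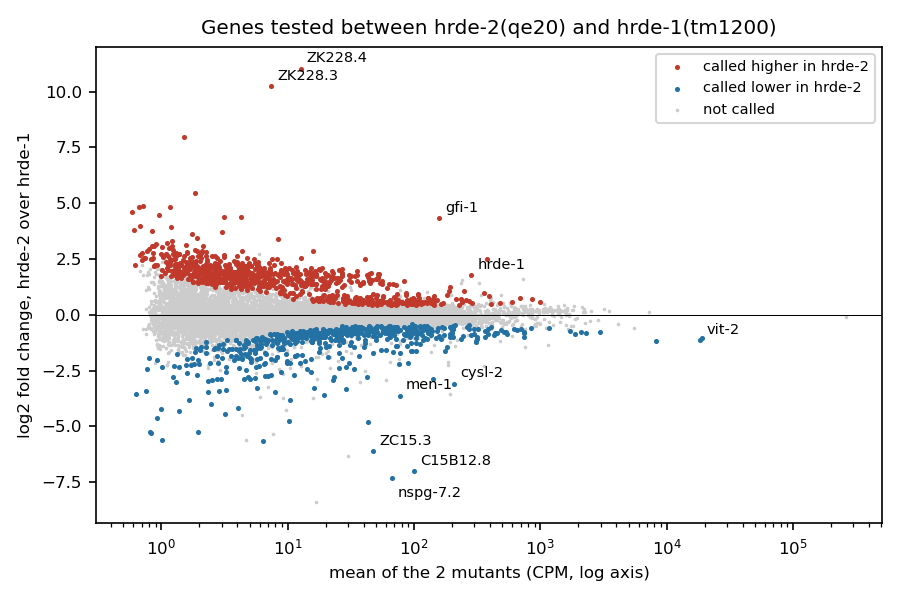
Each point is 1 of the 11801 genes tested, plotted by its mean over both mutants (CPM, log axis) and its log2 fold change of hrde-2 over hrde-1. The 835 genes called higher in hrde-2 lie mostly at low CPM, and ZK228.4 and ZK228.3 stand at log2 fold changes of 11.03 and 10.26, which are fitted values against 0 counts.

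The number of called genes depended on the libraries in the fit. When the wild-type libraries were added, with the same contrast, 391 genes were called higher (3.22%) and 297 lower (2.45%) of 12141 tested, 5.67% together, and 639 genes were called in both fits. Without hrde-2 replicate 2, 317 and 196 genes were called. Without hrde-2 replicate 1 the counts were 517 and 279, and without hrde-1 replicate 2 they were 550 and 327. In all 6 fits that left out 1 library, 300 of the genes called higher and 166 of those called lower were called each time, or 2.54% and 1.41% of all genes tested. Scaled by library size alone, which moved the median of all genes by 0.10 on the log2 scale, 974 genes were called higher and 394 lower, so that 71.2% of the calls were higher against 59.9% with the scaling used throughout.

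Among the most extreme differences were genes that were silent or nearly so in 1 mutant. ZK228.4 (WBGene00013947, chromosome V, 18462804 to 18465320) had 265, 273 and 295 counts in hrde-2 libraries, while not 1 count fell on it in hrde-1. Against a floor of 3 counts over the 3 hrde-1 libraries, it was at least 242-fold higher in hrde-2 worms (edgeR adjusted p = 9.80e-06). Its neighbour ZK228.3 on the other strand (WBGene00013946, chromosome V, 18458238 to 18461231) had 146, 161 and 185 counts in hrde-2 libraries and also none in hrde-1, and was at least 142-fold higher (adjusted p = 3.18e-05). Both genes were expressed in wild-type, at 5.32 to 24.8 CPM.

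For gfi-1 (chromosome V, 6392541 to 6399921), hrde-2 libraries had 439, 295 and 164.3 CPM and hrde-1 libraries 20.6, 12.7 and 10.7 CPM. The lowest hrde-2 library was far above the highest hrde-1 library (log2 fold change 4.34, SE 0.47; edgeR adjusted p = 0.00347), and wild-type libraries had 678, 256 and 443 CPM, so that the hrde-1 libraries were those apart. For dyf-3 (chromosome IV, 3396581 to 3399123), known for its part in building neuronal cilia, hrde-2 libraries had 6.43, 9.44 and 8.60 CPM, against 0.727, 0.120 and 0.214 CPM in hrde-1 libraries and 1.30, 1.70 and 1.42 CPM in wild-type (log2 fold change 4.40, SE 0.50; adjusted p = 3.52e-04). Wild-type lay between the mutants without overlap. The fatty acid elongase gene elo-4 (chromosome III, 9332269 to 9334274) had 18.4, 13.7 and 13.3 CPM in hrde-2 libraries, against 1.18, 1.80 and 1.39 CPM in hrde-1 libraries (log2 fold change 3.38, SE 0.29; adjusted p = 1.35e-04). Its exons overlap ufc-1 and C40H1.10 on the other strand, and without strand in the counting the reads of such partners cannot be told apart.

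The remaining genes at the top of the list showed the same separation at lower levels. T22B7.7 on chromosome X had 21.3, 39.01 and 22.6 CPM in hrde-2 libraries and 4.09, 3.11 and 4.16 CPM in hrde-1 libraries (log2 fold change 2.86). F07B7.1 had 3.22, 9.02 and 4.71 CPM in hrde-2 libraries and 0.454, 0.240 and 0.534 CPM in hrde-1 libraries, and no count in wild-type. Y74C10AR.2, ZK795.2, Y53F4B.19, M162.7 and the small sperm gene ssp-33 completed the 12 highest, with log2 fold changes from 2.59 for ssp-33 to 4.39 for Y74C10AR.2. The gene msrp-2, with 65.1, 80.4 and 59.2 CPM in hrde-2 libraries against 17.2, 21.3 and 18.9 CPM in hrde-1 libraries, was among the 6 smallest p-values of the genes that were higher (log2 fold change 1.84, SE 0.16; edgeR adjusted p = 1.37e-04).

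In the other direction, the lowest log2 fold change among the genes named by this size rule, which took called genes only, belonged to nspg-7.2 (chromosome III, 3256730 to 3258395), a member of a nematode-specific peptide family. It had 0.965, 0.927 and 0.579 CPM in hrde-2 libraries, against 105, 198 and 92.3 CPM in hrde-1 libraries. The hrde-2 libraries were 160-fold lower in mean (log2 fold change -7.32, SE 0.43; edgeR adjusted p = 1.94e-04), and wild-type lay between the mutants at 25.2, 7.46 and 34.9 CPM. C15B12.8 (WBGene00015788, chromosome X, 6474274 to 6476645) had 0.536, 1.94 and 1.98 CPM in hrde-2 libraries and 257, 200.5 and 136 CPM in hrde-1 libraries (log2 fold change -6.995, SE 0.42; adjusted p = 2.37e-04). In wild-type it was at 7.66, 2.11 and 4.61 CPM, so that the hrde-1 libraries alone were high.

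The same held for ZC15.3 (chromosome V, 20303588 to 20304908), with 0.429, 1.52 and 1.90 CPM in hrde-2 libraries, against 73.5, 91.5 and 114 CPM in hrde-1 libraries and at most 0.260 CPM in wild-type. Y23H5A.8 (chromosome I, 2632987 to 2634561) had 1.93, 2.53 and 4.38 CPM in hrde-2 libraries and 62.0, 80.8 and 106 CPM in hrde-1 libraries. F37D6.3, F16B4.6, Y68A4A.13, F49F1.7 and the neighbouring pseudogene WBGene00018648 were likewise high in hrde-1 libraries only, with log2 fold changes from -5.64 for F16B4.6 to -3.44 for the pseudogene. C27A7.8 had 0.536, 0.253 and 0.496 CPM in hrde-2 libraries and 16.3, 3.47 and 3.31 CPM in hrde-1 libraries, and its exons overlap C27A7.9 on the other strand. Of the 29 genes named by size or p-value it was the only one not called in every fit without 1 library (log2 fold change -4.16, adjusted p = 0.0135, and up to 0.0963 with a library left out).

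**Figure D2:**
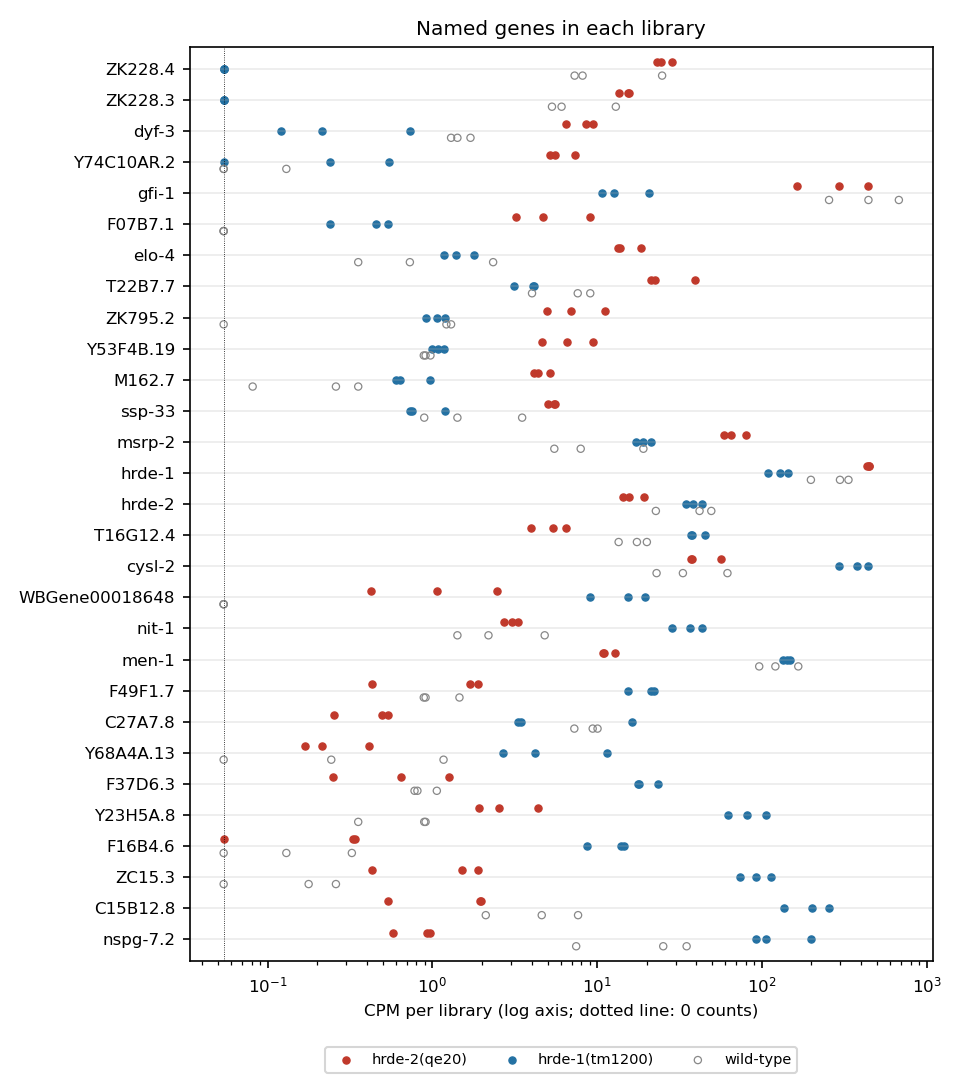
Level of each named gene (CPM, log axis, 0 counts drawn on the dotted line) in the 3 libraries of hrde-2 (red), hrde-1 (blue) and wild-type (open). For every gene the red and the blue points do not overlap. For ZC15.3, C15B12.8 and Y23H5A.8 the hrde-1 libraries alone are high, while for men-1 the hrde-2 libraries alone are low.

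Metabolic enzymes were among the smallest p-values in this direction. The malic enzyme gene men-1 (chromosome II, 14226377 to 14234120) had 10.8, 12.8 and 11.1 CPM in hrde-2 libraries, against 148, 143 and 134 CPM in hrde-1 libraries, with the smallest p-value of all genes (log2 fold change -3.61, SE 0.14; edgeR adjusted p = 1.87e-07). Wild-type libraries had 166, 96.3 and 121 CPM, so that for this gene the hrde-2 libraries stood apart. The nitrilase gene nit-1 (chromosome III, 3922207 to 3923869) had 3.32, 3.03 and 2.73 CPM in hrde-2 libraries and 43.3, 36.4 and 28.4 CPM in hrde-1 libraries (log2 fold change -3.57, SE 0.23; adjusted p = 1.27e-05). The cysteine synthase-like gene cysl-2 (chromosome II, 14492826 to 14494514) had 36.99, 37.5 and 56.7 CPM in hrde-2 libraries, against 295, 440.1 and 380.4 CPM in hrde-1 libraries (log2 fold change -3.09, SE 0.22; adjusted p = 3.79e-05). Wild-type levels of nit-1 (1.42 to 4.80 CPM) and cysl-2 (22.9 to 61.8 CPM) were near those of hrde-2. T16G12.4 had 6.43, 3.96 and 5.37 CPM in hrde-2 libraries, 44.97, 37.2 and 37.8 CPM in hrde-1 libraries, and 13.5, 17.4 and 20.0 CPM in wild-type (log2 fold change -2.93). The exons of nit-1 and cysl-2 overlap genes on the other strand.

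Genes of sperm were higher in hrde-2 worms across every kind of sperm protein examined. The major sperm proteins are small cytoskeletal proteins that move the amoeboid sperm of nematodes and signal to the oocyte. Their 31 genes summed to 1129, 1201 and 1075 CPM in hrde-2 libraries, against 307, 459 and 454 CPM in hrde-1 libraries. All 27 that were tested were called higher, against 7.08% of all genes tested. Their log2 fold changes ran from 1.17 to 1.89 with a median of 1.44, against -0.01 over all genes tested. These genes are nearly identical copies, and reads that matched several of them were not counted, so the level of a single copy is uncertain. The copy msp-81 had 76.8, 83.2 and 66.9 CPM in hrde-2 libraries and 19.5, 26.8 and 27.2 CPM in hrde-1 libraries (log2 fold change 1.63, SE 0.16; edgeR adjusted p = 2.37e-04). In the fit with wild-type libraries 9 of the 27 were also called, and 21 were called in all fits without 1 library.

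Small sperm-specific families (ssp, ssq, sss, nspd, nspf and nsph) had 31 tested members, with a median log2 fold change of 1.50. Of these, 26 were called higher (83.9%, against 7.08% of all genes tested) and 1 lower (3.23%, against 4.73%). The exception was ssp-37, with 9.76, 8.26 and 8.02 CPM in hrde-2 libraries and 19.1, 14.8 and 17.6 CPM in hrde-1 libraries (log2 fold change -0.99, SE 0.21; edgeR adjusted p = 0.0106). Of 14 tested genes for sperm phosphatases, kinases and chromatin proteins, 12 were called higher (85.7%) and none lower. That list summed to 552, 676 and 539 CPM in hrde-2 libraries and 201, 338 and 342 CPM in hrde-1 libraries. In wild-type, replicate 1 had 578 CPM, within the range of hrde-2, and replicates 2 and 3 had 247 and 290 CPM. The protein phosphatase gene gsp-4, needed for sperm meiosis and motility, had 29.4, 34.1 and 29.4 CPM in hrde-2 libraries, against 6.99, 11.3 and 9.93 CPM in hrde-1 libraries (log2 fold change 1.73, SE 0.21; adjusted p = 4.81e-04). The sperm chromatin gene spch-1 had 23.7, 33.8 and 23.2 CPM in hrde-2 libraries and 6.63, 9.46 and 10.6 CPM in hrde-1 libraries (log2 fold change 1.60), and comp-1, a kinase-like gene of sperm competition, had a log2 fold change of 2.35.

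Of 17 tested spe and fer genes, which act in sperm formation and fertilization, 6 were called higher and none lower, and all 17 had a positive log2 fold change with a median of 1.26. The myosin gene spe-15 had 39.03, 40.9 and 35.6 CPM in hrde-2 libraries, against 11.5, 14.8 and 12.4 CPM in hrde-1 libraries (log2 fold change 1.58, SE 0.17; edgeR adjusted p = 2.70e-04). The sperm-supplied embryonic factor spe-11 had 10.6, 17.2 and 13.1 CPM in hrde-2 libraries and 3.45, 4.67 and 3.10 CPM in hrde-1 libraries (log2 fold change 1.87). Over the 4 sperm lists, 71 of 89 tested genes were called higher (79.8%, against 7.08% of all genes tested). The 114 genes summed to 2870.2, 3367 and 2817 CPM in hrde-2 libraries and 919, 1401 and 1367 CPM in hrde-1 libraries. Wild-type replicates 2 and 3 had 584 and 612 CPM and replicate 1 had 1341 CPM, within the range of hrde-1. Of the 89 genes, 42 were also called higher in the fit with wild-type libraries, and between 54 and 71 in the fits without 1 library. None of the 835 genes called higher came from the list of 18 male seminal and male somatic genes, of which 3 were tested.

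**Figure D3:**
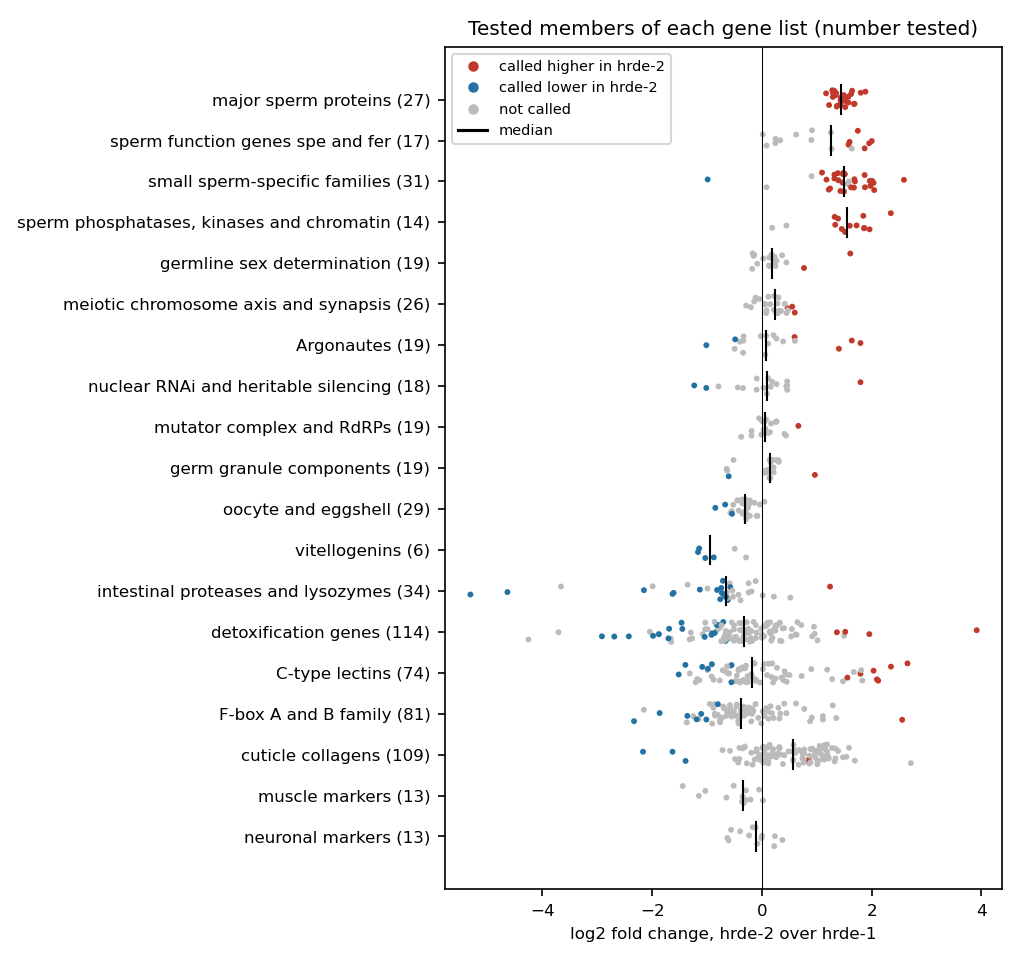
Log2 fold change of hrde-2 over hrde-1 for the tested members of 19 gene lists, with the number tested in brackets and the median as a black line. The 4 sperm lists lie to the right with medians from 1.26 to 1.56, vitellogenins and intestinal proteases and lysozymes to the left at -0.95 and -0.65, and the small RNA lists around 0.

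The calls among genes of the small RNA pathways were mixed in direction. Of 19 Argonaute genes tested, 4 were called higher (21.1%, against 7.08% of all genes tested) and 2 lower (10.5%, against 4.73%). Besides hrde-1 itself, the genes called higher included alg-3 and alg-4, which encode Argonautes of spermatogenesis. The gene alg-4 had 17.4, 21.7 and 14.9 CPM in hrde-2 libraries, against 4.54, 6.11 and 6.73 CPM in hrde-1 libraries (log2 fold change 1.64, SE 0.24; edgeR adjusted p = 0.00169). The gene alg-3 had 15.9, 19.4 and 12.9 CPM in hrde-2 libraries and 5.63, 6.71 and 5.87 CPM in hrde-1 libraries (log2 fold change 1.40, SE 0.23; adjusted p = 0.00331). These levels moved with those of the sperm lists, and the part of the sperm signal in them was not tested.

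The germline Argonaute gene wago-4, which acts in the inheritance of RNA interference, fell to 72.7, 50.6 and 61.9 CPM in hrde-2 libraries, against 118, 122 and 133 CPM in hrde-1 libraries (log2 fold change -1.01, SE 0.15; edgeR adjusted p = 0.00169). Wild-type libraries had 93.8, 104 and 113 CPM. The call of alg-5 (log2 fold change 0.60) was lost in most fits without 1 library. That of alg-2 (log2 fold change -0.49) was lost in all 6 of them and with wild-type libraries in the fit. Of 18 genes of nuclear RNAi and heritable silencing, hrde-1 was called higher (5.56%), and hrde-2 and wago-4 lower (11.1%). Among these, hrde-1 and hrde-2 are the mutated genes themselves. Over all genes tested, 7.08% were called higher and 4.73% lower. Of 19 genes of the mutator complex and RNA-dependent RNA polymerases, which make 22G-RNAs, only rde-11 was called, and it was higher (5.26%). Its log2 fold change was 0.66 (edgeR adjusted p = 0.0198). This call was lost with wild-type libraries in the fit and in 3 of the 6 fits without 1 library. Of 19 germ granule genes, the Vasa-related helicase gene glh-1 was called higher and meg-4 lower (log2 fold change -0.61), 5.26% in each direction. The gene glh-1 had 425, 457 and 531 CPM in hrde-2 libraries and 163, 255 and 306 CPM in hrde-1 libraries (log2 fold change 0.97, SE 0.22, edgeR adjusted p = 0.0161). The call of glh-1 was lost in 2 of the 6 fits without 1 library, and that of meg-4 in 4 of them and with wild-type libraries.

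Of 19 sex determination genes, fog-3 and fbf-2 were called higher (10.5%, against 7.08% of all genes tested) and none lower. The gene fog-3, required for the sperm fate, had 4.82, 2.11 and 3.31 CPM in hrde-2 libraries and 1.18, 0.599 and 1.49 CPM in hrde-1 libraries (log2 fold change 1.61, SE 0.47; edgeR adjusted p = 0.0466), and this call was lost in 4 of the 6 fits without 1 library. Neither fog-3 nor fbf-2 was called with wild-type libraries in the fit, or without hrde-1 replicate 2, hrde-2 replicate 1 or hrde-2 replicate 2. Of 26 genes of the meiotic axis and synapsis, syp-1, htp-2 and zim-3 were called higher (11.5%), with log2 fold changes from 0.47 to 0.60. None of these 3 was called with wild-type libraries in the fit, or without hrde-1 replicate 2, hrde-2 replicate 2 or hrde-2 replicate 3.

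Oocyte and eggshell genes were mostly on the negative side. Of 29 tested, none was called higher and 3 were called lower (10.3%, against 4.73% of all genes tested). A negative log2 fold change was found for 28, with a median of -0.30 over the 29. With wild-type libraries 1 of the 3 was called, and without hrde-2 replicate 2 none, without hrde-2 replicate 1 or hrde-1 replicate 2 1 each, and without hrde-2 replicate 3 there were 6. The eggshell gene perm-2 had 418, 301 and 439 CPM in hrde-2 libraries, against 812, 614 and 658 CPM in hrde-1 libraries (log2 fold change -0.85, SE 0.19; edgeR adjusted p = 0.0129). The others were perm-4 (log2 fold change -0.67) and the oocyte regulator lin-41 (-0.54). The 29 genes summed to 8839.8, 8065 and 10837 CPM in hrde-2 libraries and 11960.3, 12322 and 13080.2 CPM in hrde-1 libraries, without overlap. In wild-type, replicate 1 lay far below the other libraries at 4872 CPM, with 11186 and 10536 CPM in replicates 2 and 3.

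Yolk protein mRNA, made in the intestine and among the most abundant in adult worms, was lower in hrde-2 worms. The 6 vitellogenin genes summed to 43339.5, 27687 and 31483 CPM in hrde-2 libraries, against 92911, 61222 and 54954 CPM in hrde-1 libraries. Of the 6, vit-2, vit-4, vit-5 and vit-6 were called lower (66.7%, against 4.73% of all genes tested). For vit-2, hrde-2 libraries had 14583, 9326 and 10471 CPM and hrde-1 libraries 35204, 21692 and 19029 CPM (log2 fold change -1.14, SE 0.27; edgeR adjusted p = 0.0192). These 4 calls held in the fit with wild-type libraries and each was lost in 2 or 3 of the 6 fits without 1 library. The genes vit-1 and vit-3 were not called, with log2 fold changes of -0.29 (adjusted p = 0.408) and -0.50 (adjusted p = 0.173).

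Of 34 tested genes for intestinal proteases and lysozymes, 15 were called lower (44.1%, against 4.73% of all genes tested) and 1 higher (2.94%, against 7.08%). The median log2 fold change was -0.65. There were 8 called lower without hrde-2 replicate 1 and 7 without hrde-2 replicate 2, and 6 were called lower in all 6 fits without 1 library. The list summed to 7274, 6308 and 6332 CPM in hrde-2 libraries, against 13443, 10083 and 9492 CPM in hrde-1 libraries. The lysozyme gene lys-7, a defence gene of the gut, had 29.7, 38.1 and 30.8 CPM in hrde-2 libraries and 220.1, 100.2 and 117 CPM in hrde-1 libraries (log2 fold change -2.15, SE 0.31; edgeR adjusted p = 0.00561). The saposin-like gene spp-18 had 58.4, 51.6 and 42.5 CPM in hrde-2 libraries and 177, 168 and 126 CPM in hrde-1 libraries (log2 fold change -1.63), while spp-23 moved the other way, with 35.1, 45.7 and 33.1 CPM in hrde-2 libraries and 14.1, 14.6 and 19.4 CPM in hrde-1 libraries (log2 fold change 1.24). Of 12 intestinal markers, ges-1 and cpr-6 were called lower and none higher, neither of them in all fits without 1 library, and the intestinal transcription factor gene elt-2 was not called (log2 fold change -0.27, adjusted p = 0.456).

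**Figure D4:**
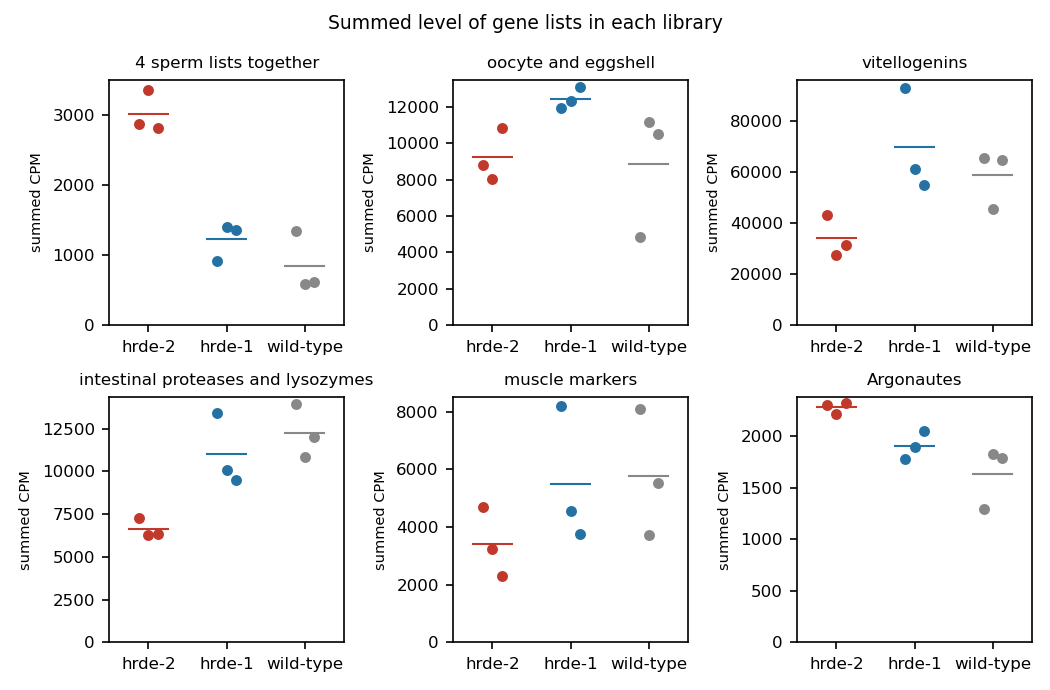
Summed CPM of 6 gene lists in each library of hrde-2, hrde-1 and wild-type, with a short line at the mean of 3 libraries and axes from 0. The hrde-2 and hrde-1 libraries do not overlap for the sperm, oocyte, vitellogenin, protease and Argonaute lists. They overlap for the muscle markers, where hrde-1 replicate 1 is highest at 8203 CPM. The Argonaute sums include the mutated gene hrde-1 itself. It took 436 to 445 CPM in hrde-2 libraries and 108 to 144 CPM in hrde-1 libraries, and the list was not summed without it.

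Detoxification genes, the cytochrome P450 and the glutathione and glucuronosyl transferase families, had 17 of 114 tested members called lower (14.9%, against 4.73% of all genes tested) and 4 higher (3.51%, against 7.08%), with a median log2 fold change of -0.33. There were 8 called lower without hrde-2 replicate 2 and 8 without hrde-2 replicate 3, 9 without hrde-2 replicate 1 and 10 without hrde-1 replicate 2, and 9 of the 17 were also called with wild-type libraries. The glutathione S-transferase gene gst-4, a standard reporter of oxidative stress, had 8.36, 10.95 and 12.1 CPM in hrde-2 libraries, against 38.2, 55.2 and 76.1 CPM in hrde-1 libraries and 16.9, 5.84 and 8.33 CPM in wild-type (log2 fold change -2.42, SE 0.26; edgeR adjusted p = 4.81e-04). The hrde-1 libraries alone were high. The genes gst-20 (log2 fold change -1.88), gst-5 (-1.45), ugt-46 (-1.69) and cyp-33C9 (-1.70) were called lower in all 6 fits without 1 library, as was cyp-29A3 in the other direction (3.91). In these data 10 of 26 tested genes of the gst family were called lower and none higher, a family singled out after its values were seen, and 5 of the 10 were called in all fits without 1 library.

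The called genes were unevenly spread over the chromosomes. On chromosome X, 11 of 1547 tested genes were called higher and 147 lower, or 0.711% and 9.50%, against 8.05% and 3.99% of the 10240 genes tested on the autosomes. The median log2 fold change was -0.31 on X and 0.03 on the autosomes. The share called higher was greatest on chromosome IV at 11.2% (229 of 2042) and on chromosome I at 9.61% (200 of 2081). None of the tested genes of the sperm lists lies on X, and with those lists left out 7.42% of the autosomal genes were called higher. The lists held only 71 of the 835 genes called higher, so leaving them out could change this share little. Whether the remaining calls included other genes of sperm was not tested. In C. elegans, X-linked genes are largely silent in male germ cells, and genes of sperm are rare on X. Scaled by library size alone, 17 X-linked genes were called higher and 93 lower, and in the fit with wild-type libraries 4 and 65. Without hrde-2 replicate 2 there were 3 and 48, without hrde-2 replicate 1 there were 5 and 73, and without hrde-1 replicate 2 there were 6 and 82.

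**Figure D5:**
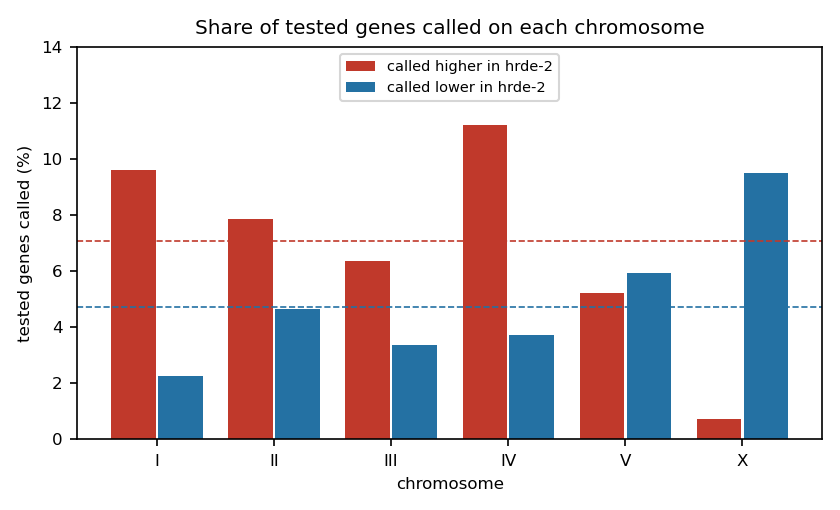
Share of the tested genes on each chromosome that were called higher (red) or lower (blue) in hrde-2 against hrde-1, in percent, with the shares over all genes tested, 7.08% and 4.73%, as dashed lines. Chromosome X has the smallest share called higher, 0.711%, and the largest share called lower, 9.50%, of the 6 chromosomes.

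X-linked genes took 10.8, 9.50 and 8.93% of the counts outside ribosomal RNA genes in hrde-2 libraries, against 15.9, 13.2 and 12.1% in hrde-1 libraries. Vitellogenins made up part of this difference. Without them the shares were 7.48, 7.21 and 6.47% in hrde-2 libraries and 9.29, 8.83 and 8.16% in hrde-1 libraries, still without overlap. The 147 X-linked genes called lower held 3 vitellogenins and 12 members of the lists in all. Singled out after their values were seen, H29C22.1 had 9.54, 10.1 and 9.59 CPM in hrde-2 libraries and 65.1, 43.8 and 36.6 CPM in hrde-1 libraries (log2 fold change -2.32), and endu-2, an endoribonuclease gene, had 93.8, 102 and 99.6 CPM in hrde-2 libraries and 300.5, 316 and 189 CPM in hrde-1 libraries (log2 fold change -1.45). Of the 11 X-linked genes called higher, T25C12.3 had 807, 664 and 458 CPM in hrde-2 libraries, against 89.3, 145 and 106 CPM in hrde-1 libraries and 1135, 516 and 901 CPM in wild-type (log2 fold change 2.50, SE 0.25; edgeR adjusted p = 3.31e-04).

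Wild-type levels showed on which side of the contrast the mutants stood. Of the 835 genes called higher in hrde-2 worms, the wild-type median was below every library of both mutants for 506 genes (60.6%). It lay within the range of hrde-1 for 179, between the mutants for 96, within the range of hrde-2 for 32 and above both for 22. Of the 558 genes called lower, the wild-type median lay between the mutants for 205 (36.7%), within the range of hrde-1 for 175, within that of hrde-2 for 81, below both for 52 and above both for 45. These counts are a description, since wild-type libraries were not part of the contrast. The placement was counted for called genes only, so no share over all genes tested stands beside it. The wild-type libraries also differed among themselves. Their sperm lists summed to 1341 CPM in replicate 1, against 584 and 612 CPM in replicates 2 and 3.

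Other tissues gave few calls. None of 13 muscle markers was called, although 12 had a negative log2 fold change. The myosin gene unc-54 had 634, 370.0 and 223 CPM in hrde-2 libraries and 2167, 697 and 472 CPM in hrde-1 libraries (log2 fold change -1.44, SE 0.73; edgeR adjusted p = 0.281), and the groups overlapped. None of 13 neuronal and 4 hypodermal markers and none of 11 moulting genes was called. Of these moulting genes 8 had a positive log2 fold change, with a median of 0.93 over the 11. The 18 genes of that list summed to 56.1, 122 and 51.4 CPM in hrde-2 libraries. They summed to 80.4, 58.7 and 44.4 CPM in hrde-1 libraries, so the groups overlapped and hrde-2 replicate 2 was highest. Whether the libraries differed in developmental stage was not tested. Of 109 cuticle collagen genes, 1 was called higher (0.917%) and 3 lower (2.75%), among them col-95 and col-135. Both shares were below the 7.08% and 4.73% of all genes tested. In this list 88 had a positive log2 fold change, with a median of 0.57 over the 109. DESeq2 called 8 higher and 4 lower, and a fit without a filter on low counts 14 higher and 4 lower. The collagens summed to 23537, 25728 and 27477 CPM in hrde-2 libraries and 18139, 23265 and 28101 CPM in hrde-1 libraries, which overlapped. Of 81 ribosomal protein genes, 2 were called higher (2.47%) and 1 lower (1.23%).

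Families of fast-evolving genes were mixed. Of 74 C-type lectin genes, 7 were called higher and 7 lower, or 9.46% each, and 3 and 1 of them in all fits without 1 library. Over all genes tested, 7.08% were called higher and 4.73% lower. The gene clec-73 had 11.04, 14.9 and 9.51 CPM in hrde-2 libraries and 2.63, 2.87 and 2.78 CPM in hrde-1 libraries (log2 fold change 2.10), and clec-65 had 95.3, 73.7 and 75.3 CPM in hrde-2 libraries and 186, 176 and 157 CPM in hrde-1 libraries (log2 fold change -1.09). Of 81 F-box genes of the A and B families, 1 was called higher (1.23%) and 7 lower (8.64%), and none and 3 of them in all such fits. Of 48 MATH and BTB domain genes, none was called higher and 2 lower (4.17%), bath-45 and bath-20, both at 1.24 to 1.60 CPM in wild-type. For bath-45, hrde-2 libraries had 2.36, 1.94 and 1.57 CPM and hrde-1 libraries 10.4, 13.8 and 13.8 CPM (log2 fold change -2.70, SE 0.29; edgeR adjusted p = 2.70e-04).

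The study listed genes whose small RNAs were enriched with HRDE-1 in mut-2 mutants, which lack much of the 22G-RNA pool of silenced genes, and in mut-2; hrde-2 double mutants. It also defined such targets in wild-type worms and in hrde-2 mutants, and those sets were not used here. Of 722 tested genes of the list from mut-2, 31 (4.29%) were called higher in hrde-2 worms and 56 (7.76%) lower, with a median log2 fold change of -0.13. Of 659 tested genes of the list from the double mutant, 23 (3.49%) were called higher and 28 (4.25%) lower, with a median of 0.03. The supplementary list used here does not have the size that the article's text gives for these targets, and which of the sets is meant is not known, so these shares hold for the list as used. Another list held genes that gained H3K9 trimethylation signal in hrde-2 worms against wild-type, measured in isolated germline nuclei. The paper reports that the antibody also bound other trimethylated silencing marks, so the list may reflect several marks. The calls here compare hrde-2 with hrde-1 in mRNA of whole animals. Of the 290 tested genes of that list, 21 (7.24%) were called higher and 11 (3.79%) lower, with a median of 0.00. Against 7.08% and 4.73% of all genes tested, that list stood near the background in both directions. The list from mut-2 stood below it for higher calls and above it for lower calls, and its genes called lower included nit-1, T16G12.4, Y23H5A.8, F37D6.3, F16B4.6 and F49F1.7. The list from mut-2; hrde-2 included T16G12.4, F49F1.7 and cysl-2, and both lists included hrde-1 itself. In all 6 fits without 1 library, 9 genes of the list from mut-2 were called higher and 27 lower, 3 and 10 of the list from the double mutant, and 6 and 2 of the methylation list.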

How the data were processed

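Polyadenylated RNA of whole worms was sequenced, and the authors deposited 1 table of raw counts per library, made as the study's methods and the file headers describe. Reads were trimmed with Trimmomatic 0.39, aligned with HISAT2 2.2.1 and counted over exons with featureCounts of Subread 2.0.1 on a WormBase annotation. Strand was not used, and reads with several matches were not counted. Each table held 31106 genes, and 30911 matched the reference annotation. Coordinates are those of the count tables.

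The 3 hrde-2 and the 3 hrde-1 libraries were fitted together in edgeR 4.0.16 (R 4.3.3) with its quasi-likelihood test, TMM scaling, a filter on low counts and genotype as the only term. Genes with a Benjamini-Hochberg adjusted p under 0.05 were called. CPM values use the TMM-scaled library size. A log2 fold change is hrde-2 over hrde-1. The script was tested on simulated data.

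Genes were named if they were among the 12 highest or 12 lowest log2 fold changes called with and without wild-type libraries, with at least 50 counts on average in the higher mutant and no overlap, among the 6 smallest p-values in either direction, mutated in the study, or members of the lists. Members and lists were chosen with earlier results of these data known. Alternatives included DESeq2 1.42.0, other scalings and filters, and each library left out.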

Additional observations from a re-analysis of the deposited data

How the results depend on the processing

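Of 3330 values of the 196 called genes in the lists or named by size or p-value, 566 lost the threshold under an alternative and none changed sign. Of these, 493 values belonged to the 29 genes named by size or p-value, where 4 lost it, all of C27A7.8. The cuticle collagens, with 1 called higher and 3 lower, had 8 and 4 with DESeq2, 14 and 4 without a filter, and 11 and 3 with the replicate block in 6 libraries. The fit gave 1393 called genes, 835 higher in hrde-2 and 558 lower, with 71 sperm-list genes higher and 11 X-linked genes higher and 147 lower. With all 9 libraries the counts were 688, 391 and 297, with 42 sperm-list genes higher and 4 X-linked genes higher and 65 lower. Without a filter there were 2206 called genes, 1045 of them lower, with 34 X-linked genes higher and 260 lower. Scaling by library size gave 17 X-linked genes higher and 93 lower. A threshold of 0.01 on the adjusted p left 533 called genes, 342 higher and 191 lower, with 3 X-linked genes higher and 49 lower. Of the called genes, 928 differed at least 2-fold, 274 of them lower. The cause of these differences was not tested. Leaving out each library in turn gave from 513 to 1430 called genes, from 317 to 808 higher, from 196 to 644 lower, from 3 to 17 X-linked genes higher and from 48 to 171 lower. The deviations of same-numbered hrde-2 and hrde-1 libraries from their group means correlated at 0.159, 0.0974 and 0.255. Pairs with different numbers correlated at -0.201 to 0.0672, so each library correlated best with its own number. Whether replicates of 1 number were handled together is not given by the labels and was not tested. With the replicate number as a block, the 6 libraries gave 1957 called genes, 900 of them lower, with 22 X-linked genes higher and 222 lower. With that replicate block in all 9 libraries there were 518 called genes, 265 higher and 253 lower, with 24 sperm-list genes higher and 4 X-linked genes higher and 59 lower.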

Other observations

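The genes in this section were singled out after their values were seen. Among the genes called lower outside the lists were rips-1, rhy-1, cdo-1 and gpx-8, picked one by one and standing for no group. The gene rips-1 had 31.2, 32.9 and 34.1 CPM in hrde-2 libraries and 83.5, 112 and 116 CPM in hrde-1 libraries (log2 fold change -1.66, SE 0.15; edgeR adjusted p = 1.63e-04). The gene rhy-1, a regulator of HIF-1, was also lower (log2 fold change -1.12, SE 0.16; adjusted p = 0.00153 in edgeR). The cysteine dioxygenase gene cdo-1 had a log2 fold change of -1.76 and the glutathione peroxidase gene gpx-8 one of -2.73. For all 4 genes the groups did not overlap, and all 4 were called in every fit without 1 library.

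The families given next were picked from all gene families with 5 or more tested members, against 7.08% called higher and 4.73% called lower over all genes tested. All 5 tested ule genes, which encode proteins of the uterine lumen, were called lower, among them ule-3 with 537, 384 and 574 CPM in hrde-2 libraries and 857, 994 and 1103 CPM in hrde-1 libraries (log2 fold change -0.98). Of 12 tested nspc genes 7 were called lower, and of 7 cpr genes, which encode cathepsin B-like proteases, 5. Of 6 msrp genes and of 8 ttbk genes, 4 each were called higher and none lower. In all fits without 1 library, 3 of the 5 ule calls, 1 of the 7 nspc calls, none of the 5 cpr calls, 4 of the 4 msrp calls and 1 of the 4 ttbk calls remained.

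Of 27 tested genes within 30000 bases of ZK228.4, C15B12.8, ZC15.3 or F49F1.7, 9 were called, against 11.8% of all genes tested. The windows were centred on genes picked for their large differences. The called genes ZK228.3 and the pseudogene WBGene00018648 were themselves among the genes named by size. Beside ZK228.3 and ZK228.4, ZK262.9 had 24, 32 and 45 counts in hrde-2 libraries and none in hrde-1 libraries, and ZK262.8 had 20, 22 and 34 counts in hrde-2 libraries and 2, 0 and 0 in hrde-1 libraries. In wild-type ZK262.9 had 1, 0 and 0 counts and ZK262.8 none. By contrast, ZK228.3 had 30 to 100 counts and ZK228.4 46 to 191 counts in wild-type libraries. The genes Y51A2D.18 and slo-1 in the same window were not called (log2 fold changes 1.03 and 1.13). Beside C15B12.8, only C15B12.4 was called of 7 tested. Beside ZC15.3, the genes WBGene00014977, ZC15.1 and ZC15.10 were also called lower, while Y113G7C.1 was called higher, with 166, 265 and 192 counts in hrde-2 libraries and 51, 46 and 40 counts in hrde-1 libraries.

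There were 12 genes that differed at least 8-fold, with 50 or more counts on average in the higher mutant, and were not called. All 12 were lower in hrde-2 libraries without overlap, and in all 12 hrde-1 replicate 1 was the highest hrde-1 library, 3.88 to 16.53 times the next. The flavin monooxygenase gene fmo-2 had 0, 0.253 and 0 CPM in hrde-2 libraries and 85.6, 8.74 and 6.19 CPM in hrde-1 libraries (edgeR adjusted p = 0.0750), and the metallothionein gene mtl-1 had 1.61, 0.674 and 0.0827 CPM in hrde-2 libraries and 157, 13.9 and 6.62 CPM in hrde-1 libraries (adjusted p = 0.129). Without hrde-1 replicate 1, 10 of the 12 were called, the exceptions being tts-1 and ilys-2, and fmo-2 had an adjusted p of 9.63e-06.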
